A study of Mus musculus with 4 samples.

Results

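The Eph receptors described here are 10 genes, chosen by name, with earlier results of these data known, from the 45706 features of the count files: Epha3, Epha4, Epha5, Epha6, Epha7, Epha8, Epha10, Ephb1, Ephb2 and Ephb6. They were followed in nuclei of adult-born granule cells (GCs) from the dentate gyrus of young adult mice of both sexes that carried CAG floxStop-Sun1/sfGFP and a tamoxifen-inducible Cre. Tamoxifen activates the Cre recombinase, and the nuclear membrane of recombined cells and of their progeny is then labelled with Sun1-sfGFP, so that labelled nuclei can be sorted. All 4 libraries carried these alleles and the tamoxifen treatment, and they differed in the time between labelling and dissection, which was 1, 2, 4 or 8 weeks (w1, w2, w4 and w8). Each library was 1 pool of left dentate gyri from several mice, without a second pool of the same week, so weeks were not tested against each other. Sorted nuclei included radial glia-like cells (RGLs) and their neuronal progeny, and also astrocytes, oligodendrocyte precursor cells (OPCs), oligodendrocytes and a vascular cluster.

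Eph receptors are the receptor tyrosine kinases of the ephrins, ligands that stay bound to the membrane of the neighbouring cell. Receptors of the A class bind mainly ephrin-A proteins, which are held by a lipid anchor, and receptors of the B class bind mainly ephrin-B proteins, which cross the membrane. Epha4 is known to bind both. Contact between receptor and ephrin signals into both cells and guides axons, places migrating cells and shapes dendritic spines and synapses. In the dentate gyrus this family is known for its part in progenitor positioning and in the growth of mossy fibers.

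The sequences before the starts of 3 receptor genes are given as examples, chosen after their values were seen, of courses that differ: Epha6 was low in precursors and high in granule cells, Ephb1 was high in RGLs and low in mature granule cells, and Epha5 was lower from NPC to GCimm1 than before or after. They are the 250 bases upstream of the RefSeq gene start on build GRCm38.p6, written 5′ to 3′ on the strand of the gene, which is the minus strand for all 3. Capitals mark CAGATG, an E-box of the kind bound by basic helix-loop-helix factors.
Epha5 (chr5:84417383-84417632): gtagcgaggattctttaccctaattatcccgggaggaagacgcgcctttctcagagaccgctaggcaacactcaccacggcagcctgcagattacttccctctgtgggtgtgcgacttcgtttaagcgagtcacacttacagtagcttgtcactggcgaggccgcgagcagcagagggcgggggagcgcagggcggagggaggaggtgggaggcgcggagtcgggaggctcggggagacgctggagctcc
Epha6 (chr16:60605532-60605781): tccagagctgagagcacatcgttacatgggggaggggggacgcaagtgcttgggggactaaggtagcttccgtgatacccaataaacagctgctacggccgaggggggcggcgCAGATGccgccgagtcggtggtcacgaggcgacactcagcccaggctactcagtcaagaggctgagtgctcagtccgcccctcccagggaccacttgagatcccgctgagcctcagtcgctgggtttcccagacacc
Ephb1 (chr9:102354694-102354943): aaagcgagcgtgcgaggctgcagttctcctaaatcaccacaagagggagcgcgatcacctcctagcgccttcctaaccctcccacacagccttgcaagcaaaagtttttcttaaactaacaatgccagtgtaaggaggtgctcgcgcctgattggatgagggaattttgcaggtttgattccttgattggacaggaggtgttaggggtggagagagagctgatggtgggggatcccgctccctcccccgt
All 10 receptors had a RefSeq window, running from 250 bases before to 50 bases after the start. CAGATG was searched on both strands and was found in the window of Epha6 and in that of no other receptor, while 17.2% of all 32851 windows held it. ACAAAG, the core of Sox factor sites, was in none of the windows of the receptors and in 18.7% of all windows. The windows of the receptors held 14 (Ephb1) to 56 (Epha8) CpG dinucleotides, against a median of 7 over all windows. These matches describe letters in a window, and binding was not measured. The gene bodies lie on chromosomes 1, 4, 5, 6, 9 and 16 of GRCm38. Epha7, Epha8, Epha10 and Ephb2 lie on chromosome 4, and Epha6 (59653483 to 60605531) and Epha3 (63543534 to 63864175) on chromosome 16. Among genes annotated on the opposite strand within a receptor gene and found by symbol in the count tables, the most UMIs were 660, for Gm26846, against 22335 for Ephb1 around it. For 4930547E14Rik within Epha6 and Gm31326 within Ephb1, counts were not analysed here.

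In all, 14367 nuclei in 13 deposited clusters were used, from libraries of 13227971 to 28595331 UMIs, with medians of 4369 to 7703.5 UMIs per nucleus. Libraries shared 1 to 6 nucleus barcodes, at most 0.157% of the smaller library. The study's trajectory clusters begin with RGL, neural progenitor cells (NPC) and neuroblasts 1 and 2 (NB1, NB2). They are followed by immature granule cells 1 and 2 (GCimm1, GCimm2), young granule cells (GCyoung) and mature granule cells 1 and 2 (GCmat1, GCmat2). These are not 1 line: the study describes NB2 as a branch beside the way from NB1 to GCimm1. It also left GCmat2 out of its ordering of nuclei by pseudo-time. Marker lists matched most names: the 5 astrocyte markers and the 4 markers each of NPC, OPC and oligodendrocytes had their highest level in the matching cluster, and 3 of 5 RGL markers in RGL. Of 4 pericyte markers, 2 had their highest level in the cluster deposited as Peri, Pdgfrb with 101 UMIs per 1000000 UMIs (CPM) and Abcc9 with 6.32 CPM, and the other two, Rgs5 and Higd1b, had no UMI there. The pericyte list summed to 107 CPM in this cluster, its highest value. A list of 4 markers of vascular leptomeningeal cells summed to 5291 CPM there, including Tbx18 (313 CPM) and Slc6a13 (648 CPM), the genes by which the study named the cluster. It is called the Peri cluster here without a cell type. Levels are given as CPM of all nuclei of a cluster or library, with an exact 95% Poisson interval that covers counting error only. Fewer cells with a transcript and fewer transcripts per cell cannot be told apart in such sums.

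Summed over the 10 genes, the level of receptor transcripts was higher in granule cells than in RGL and NPC, and the EphB share of receptor UMIs was lower in granule cells than in RGL. These sums were not tested. All receptors together made up 1464 CPM in RGL, 1141 in NPC, 2081 in NB1, 3793 in GCimm1, 5110 in GCimm2 and 5705 in GCyoung. The sum stayed at 5160 CPM in GCmat1 and 5384 in GCmat2, and it was 638 CPM in astrocytes, 788 in OPC and 778 in oligodendrocytes. EphB receptors took 58.8% of receptor UMIs in RGL (exact binomial interval 57.7 to 59.8%), 32.6% in NPC and 23.2% in NB1. The EphB share was 39.6% in NB2, 15.5% in GCimm1, 3.32% in GCyoung and 2.45% in GCmat1. It was low in OPC, with 7.89%, and higher in oligodendrocytes, with 44.4%. These sums weight long genes more, because unspliced RNA of nuclei is counted along introns. Per kilobase of gene span the lead in RGL turned, with a sum of 2.59 CPM per kb for the EphA receptors and 2.17 for the EphB receptors, and in GCmat1 the sums were 18.5 and 0.753 CPM per kb.

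**Figure D1:**
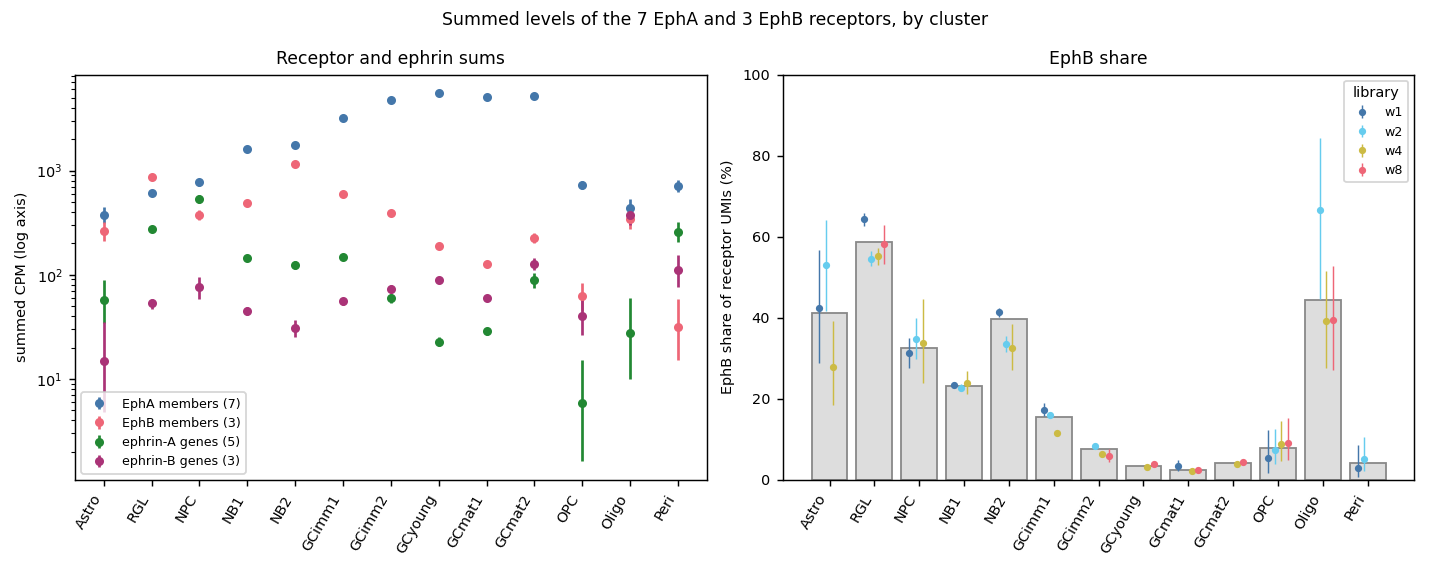
Summed CPM (left, log axis) of the 7 EphA and 3 EphB receptors, 5 ephrin-A and 3 ephrin-B genes by cluster, with 95% Poisson intervals, and EphB share of receptor UMIs in percent (right, bars for all nuclei, points for each library with exact binomial intervals). The EphB share is highest in RGL, with 58.8%, and lowest in GCmat1, with 2.45%.

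Per kilobase of annotated gene span, the scale used here to compare genes, Epha4 or Epha7 had the highest level in every trajectory cluster after RGL. Epha4 led with 3.30 CPM per kb in NPC, 6.12 in NB1, 6.96 in NB2 and 6.25 in GCimm1. Epha7 led with 6.24 CPM per kb in GCimm2, 7.73 in GCyoung and 8.06 in GCmat1, and Epha4 led again in GCmat2 with 5.30 against 4.20 for Epha7. In RGL, Ephb1 led with 1.96 CPM per kb, and in OPC Epha5 led with 1.59. Epha6, whose span of 952 kb is the longest of the receptors, had the highest pooled CPM of all in granule cells but 2.13 CPM per kb in GCmat1. In GCimm1 of w1 its 475 CPM was below Epha4 (959) and Epha7 (653).

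Neighbouring clusters were compared on UMIs summed per library and cluster, with edgeR's quasi-likelihood test over all genes. To be called, a receptor had to differ 1.5-fold or more with a p, adjusted after Benjamini and Hochberg, no higher than 0.05. Since the deposited clusters come from the same expression values, these p-values describe how clusters differ and are no independent evidence. Between astrocytes and RGL 1 of 10 receptors was called, and it was higher in RGL, where 9.58% of all genes were called (4.77% higher and 4.82% lower). From RGL to NPC 6 of 10 receptors were called, 3 higher and 3 lower, against 29.5% of genes (13.7% higher and 15.9% lower). From NPC to NB1 6 of 10 were higher and none lower, against 29.3% of genes (14.7% higher and 14.6% lower). From NB1 to NB2 1 of 10 was higher, against 2.94% of genes (1.81% higher and 1.13% lower). From NB1 to GCimm1 5 of 10 were higher, against 12.5% of genes (7.76% higher and 4.75% lower). From GCimm1 to GCimm2 3 were higher and 1 lower, against 9.43% of genes (6.52% higher and 2.91% lower). From GCimm2 to GCyoung 2 were higher and 2 lower, against 18.9% of genes (9.27% higher and 9.62% lower). From GCyoung to GCmat1 1 was higher and 1 lower, against 3.85% of genes (1.6% higher and 2.25% lower). From GCmat1 to GCmat2 1 was higher and 3 were lower, against 7.3% of genes (3.01% higher and 4.28% lower).

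The receptors' median log2 fold change from NPC to NB1 was 1.38 over 9 genes, with Epha8 set against 3 UMIs in NPC, and that of all genes was 0.06. From RGL to NPC the fitted values of the 10 receptors had a median of -0.47, and without the 2 receptors that had no UMI in NPC it was 0.26, so no direction can be given for the list there. The same held from GCmat1 to GCmat2, with -0.20 fitted over 10 receptors and 0.30 without Epha8, which had no UMI in GCmat2. From NB1 to GCimm1 the median was 0.71 against -0.01 for all genes. Of the 4 Eph receptors left off the list, 2 were fitted, with medians of -0.77 from NPC to NB1 and -1.11 from NB1 to GCimm1. Because the 10 genes were chosen with earlier results of these data known, the medians describe this list only.

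**Figure D2:**
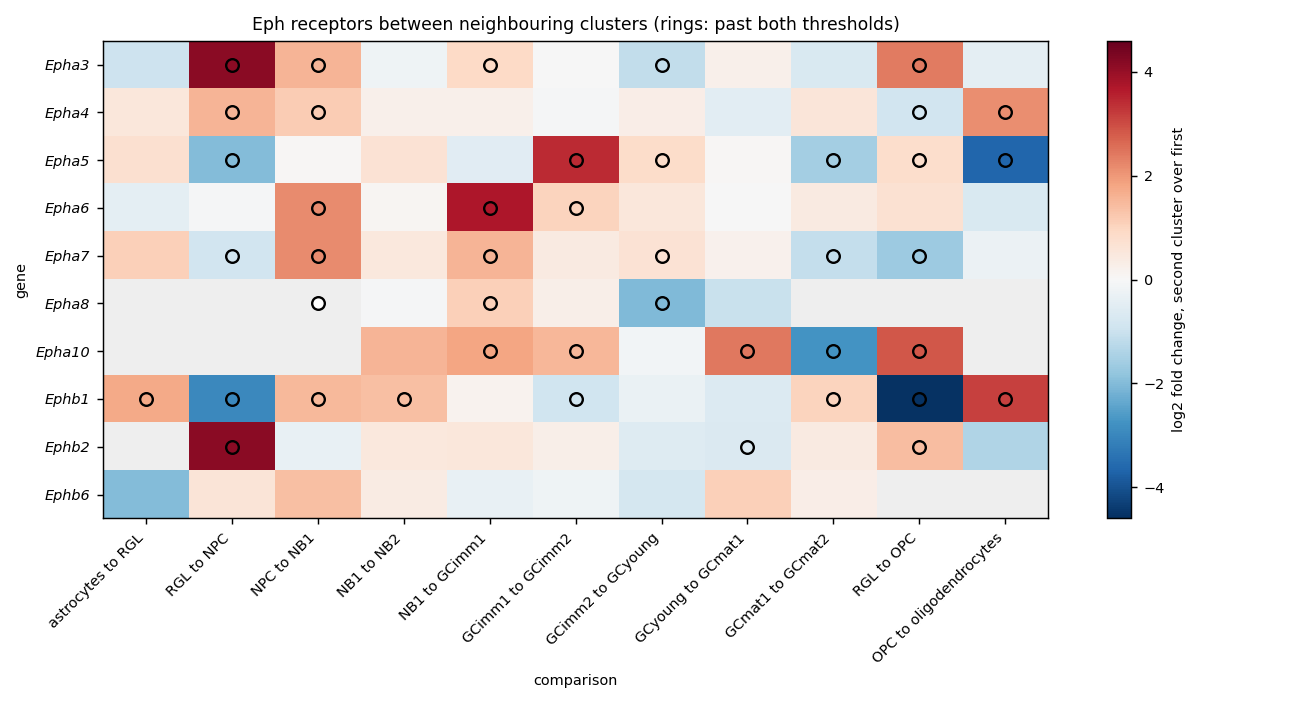
Fitted log2 fold change (colour, second cluster over first) of each receptor (rows) in each of the 11 comparisons (columns), with rings where both thresholds were passed. Grey fields had no UMI in 1 of the clusters or were not fitted, and the ring on such a field is the call of Epha8 from NPC to NB1. Of 106 fitted values 43 were past both thresholds, and Ephb6 has no ring.

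Epha6 was low in precursors and high in granule cells. In w4, the library that held at least 10 nuclei of every cluster from astrocytes to GCmat2, its level was 28.0 CPM in RGL, 52.4 in NPC, 108 in NB1 and 38.4 in NB2. The values of NPC and NB2 came from 4 and 3 UMIs, so their order is not read. In the same library Epha6 was 1168 CPM in GCimm1, 1768 in GCimm2, 2305 in GCyoung, 2035 in GCmat1 and 3094 in GCmat2. The step lay between neuroblasts and GCimm1 in each library with both: from 47.0 to 475 CPM in w1, from 63.4 to 940 in w2 and from 108 to 1168 in w4. The groups did not overlap, and the fold change was 3.71 on the log2 scale (SE 0.27, adjusted p = 4.8e-16). Epha6 had already risen from NPC to NB1 (2.18, SE 0.48, adjusted p = 0.00026), from 3, 7 and 4 UMIs in NPC of w1, w2 and w4. In w4 the exact interval of this ratio, 0.751 to 7.83, included 1. Epha6 rose again from GCimm1 to GCimm2 (1.02, SE 0.24, adjusted p = 0.0018). The last call was lost with DESeq2 (adjusted p = 0.10) and without w2 (log2 fold change 0.87). By pooled level the later clusters were ordered GCimm2 (1869 CPM), GCmat1 (2029), GCyoung (2310) and GCmat2 (3206). The steps tested among them, GCimm2 to GCyoung, GCyoung to GCmat1 and GCmat1 to GCmat2, were not called, and the other pairs were not tested. An Epha6 UMI was found in 82.1% of GCimm1 nuclei (exact interval 80.5 to 83.6%, median 5045.5 UMIs) and in 99.97% of GCmat1 nuclei (median 8138 UMIs). After thinning each nucleus to 2000 UMIs these shares were 67.9% and 96.7%. In oligodendrocytes 6.67% of nuclei had a UMI (1.40 to 18.3%, median 4801 UMIs), and in RGL 5.98%. A list of 6 neuronal genes gave 200 and 204 CPM in these clusters, against 9528 in GCmat1. Whether these shares are background from free RNA was not tested.

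Epha7, an ephrin-A receptor that is also known in truncated forms, likewise rose in several steps. By library, its level was 56.1, 55.5 and 144 CPM in NPC of w1, w2 and w4, then 221, 309 and 251 in NB1, and 653, 796 and 707 in GCimm1. It was 1190 and 1208 CPM in GCyoung of w4 and w8. None of these groups overlapped with the next. The log2 fold change was 2.18 (SE 0.29, adjusted p = 1.2e-08) from NPC to NB1 and 1.57 (SE 0.20, adjusted p = 2.3e-08) from NB1 to GCimm1. From GCimm2 to GCyoung it was 0.66 (SE 0.23, adjusted p = 0.030), a call lost with DESeq2 (adjusted p = 0.29), without the library term (adjusted p = 0.064), with RLE factors (log2 fold change 0.54) and without w4 or w8 (log2 fold changes 0.73 and 0.51). From RGL to NPC Epha7 fell by 0.88 (SE 0.30, adjusted p = 0.018), lost with DESeq2 (adjusted p = 0.053) and without w1 or w2. In GCmat2 it was lower, with 681 CPM in w4 and 635 in w8 against 1526 and 1202 in GCmat1 (log2 fold change -1.11, SE 0.23, adjusted p = 0.00059). That call was lost without w4, with -0.89.

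Epha5 was higher in RGL and OPC and from GCimm2 on than in the clusters from NPC to GCimm1, and it was 68.3 CPM in oligodendrocytes. Its level in RGL was 334, 356, 371 and 360 CPM in w1, w2, w4 and w8 and differed little between libraries. It fell to 76.2, 145 and 65.5 CPM in NPC of w1, w2 and w4 (log2 fold change -1.99, SE 0.29, adjusted p = 1.2e-07). In GCimm1 it was 9.16, 60.6 and 110 CPM, with the lowest value in w1 and the highest in w4. Levels in GCimm2 were 532, 761 and 853 CPM in w2, w4 and w8, all above those in GCimm1, and the log2 fold change was 3.43 (SE 0.26, adjusted p = 7e-15). Of the 4 receptors called between the immature clusters, Epha5 had the largest change. The further rise to GCyoung was 0.84 (SE 0.25, adjusted p = 0.011). It was lost with DESeq2 (adjusted p = 0.25), without the library term (adjusted p = 0.053) and without w2, w4 or w8 (log2 fold changes 0.76, 1.05 and 0.72). GCyoung and GCmat1 did not differ past the thresholds. In GCmat2 Epha5 was 469 CPM in w4 and 341 in w8, below both values in GCmat1, 1317 and 908 (log2 fold change -1.56, SE 0.27, adjusted p = 2.5e-05).

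Epha4 was present at every step. It was between 112 and 132 CPM in the RGL of the 4 libraries, 367 to 565 in NPC and 843 to 949 in NB1, without overlap. It rose by 1.56 on the log2 scale from RGL to NPC (SE 0.21, adjusted p = 1.9e-08) and by 1.18 from NPC to NB1 (SE 0.21, adjusted p = 6.2e-06). From NB1 onwards no tested pair of neuronal clusters was called for Epha4. Its pooled levels were 1029 CPM in NB2, 925 in GCimm1, 815 in GCimm2, 828 in GCyoung, 550 in GCmat1 and 784 in GCmat2. In w4, the library with every cluster of the path, the order was NB2 (1076 CPM), GCmat2 (1039), GCimm1 (984), GCimm2 (904), NB1 (860), GCyoung (840) and GCmat1 (619), so it differed from the pooled order, in which GCmat2 came after GCimm2. A UMI of Epha4 was found in 96.2% of GCmat1 nuclei, 64.3% after thinning.

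Epha3 had its peak in immature granule cells. Its level was 2.17, 7.05, 6.63 and 0 CPM in the RGL of w1, w2, w4 and w8 and 118, 83.2 and 118 in the NPC of w1, w2 and w4. The log2 fold change from RGL to NPC was 4.17 (SE 0.39, adjusted p = 7.2e-13). It rose to 301, 273 and 186 CPM in NB1 (1.58, SE 0.26, adjusted p = 2e-06) and to 353, 469 and 508 in GCimm1 (0.91, SE 0.19, adjusted p = 0.0003). The rise to GCimm1 was lost without w4, with 0.62. In GCimm2 the libraries w2, w4 and w8 had 471, 327 and 500 CPM, and in GCyoung w4 and w8 had 157 and 148. This fall was -1.15 (SE 0.23, adjusted p = 0.00011). GCmat1 and GCmat2 had 202 and 133 CPM, and Epha3 was not called from GCyoung to GCmat1 or from GCmat1 to GCmat2.

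In CPM, Epha8 and Epha10 were the low receptors of the A class, but their spans are short. Per kb, Epha10 was above Epha3 in GCmat1 (1.34 against 0.631). Likewise Epha8 was above Epha5 in GCimm1 (0.574 against 0.177 CPM per kb). Epha8 had no UMI in astrocytes, NPC, GCmat2, OPC or oligodendrocytes. In NPC 3 UMIs would be 3.28 CPM, and in NB1 Epha8 was 7.98 CPM, from 87 UMIs, or 2.43 times that value. The rise was called (adjusted p = 0.0044), but not without w1. Exact lower bounds of the ratio by library were 1.13 in w1, 0.607 in w2 and 0.0321 in w4. Epha8 was 15.7 CPM in GCimm1 and 17.2 in GCimm2, and fell to 2.54 in GCyoung (log2 fold change -2.03, SE 0.44, adjusted p = 0.00047), a call lost without w4. The rise from NB1 to GCimm1 (1.09, SE 0.33, adjusted p = 0.019) was lost with DESeq2 (adjusted p = 0.15), without the library term (adjusted p = 0.062) and without w2 or w4. After thinning Epha8 was not fitted, so its calls were not checked at equal depth. Epha10, whose kinase domain is known to lack activity, was highest in GCmat1. It was 12.3 and 4.88 CPM in GCyoung of w4 and w8 and 41.6 and 48.9 in GCmat1, a rise of 2.42 (SE 0.29, adjusted p = 4.9e-08). The 17 GCmat1 nuclei of w1 had 154 CPM. In GCmat2 it was 17.7 CPM in w4 and 3.61 in w8, lower than in GCmat1 of the same library (log2 fold change -2.74, SE 0.46, adjusted p = 1.8e-05), a call lost without w8 (-1.64). Its rises from NB1 to GCimm1 (1.82) and from GCimm1 to GCimm2 (1.54) were lost with DESeq2 (adjusted p = 0.31 and 0.19) and without w2, the first also without w1.

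Ephb1 had its peaks in RGL and NB2, where it was above the other B class receptors, with 1.96 and 2.10 CPM per kb. Per kb, Ephb2 was above Ephb1 in NPC (1.25 against 0.304), NB1, every granule cell cluster and OPC. In RGL Ephb1 was 992, 711, 833 and 787 CPM in w1, w2, w4 and w8, and in astrocytes 161, 383 and 228 in w1, w2 and w4. It was higher in RGL than in astrocytes in 3 of 3 libraries (log2 fold change 1.73, SE 0.26, adjusted p = 9.3e-07), where the median of all genes was 0.27. The 5 astrocyte markers summed to 9246 CPM in astrocytes and 3603 in RGL, and their part in this difference was not tested. From RGL to NPC Ephb1 fell by 2.96 (SE 0.25, adjusted p = 3.5e-14), to 126, 129 and 197 CPM. It then rose by 1.51 to NB1 (SE 0.26, adjusted p = 5e-06), where it was 318, 292 and 352 CPM. NB2 had 964, 702 and 935 CPM, all above the values in NB1, and Ephb1 was the receptor called between these clusters (log2 fold change 1.40, SE 0.21, adjusted p = 3.4e-06). It was found in 88.0% of NB2 nuclei and 46.2% of NB1 nuclei, and in 75.3% and 34.6% after thinning. From GCimm1 to GCimm2 it fell by 0.91 (SE 0.22, adjusted p = 0.0019), from 421 to 210.1 CPM in w2 and from 251 to 100.5 in w4. This call was lost without w4, with -0.73. GCmat2 had 137 and 131 CPM in w4 and w8 against 55.7 and 67.1 in GCmat1 (1.01, SE 0.27, adjusted p = 0.0089), lost without w4 or w8 (0.95 and 1.21) and after thinning (0.81).

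Ephb2, known for its contact with NMDA receptors at synapses, appeared in NPC. It had 6.96, 14.1, 11.8 and 3.19 CPM in the RGL of w1, w2, w4 and w8 and 240.5, 249.5 and 183 in the NPC of w1, w2 and w4 (log2 fold change 4.17, SE 0.25, adjusted p = 2.6e-19). No UMI of Ephb2 was seen in astrocytes, where 3 UMIs would be 8.95 CPM. From NPC through GCimm2 its pooled level stayed between 163 and 236 CPM, and the increase from NB1 to GCimm1 (0.51, SE 0.16, adjusted p = 0.019) was under the fold threshold. It was 217, 207 and 160 CPM in GCimm2 of w2, w4 and w8 and 101 and 107 in GCyoung of w4 and w8. The log2 fold change of -0.58 (SE 0.19, adjusted p = 0.025) missed the fold of 1.5, and it was called with RLE factors (-0.69), with DESeq2 (-0.66), without the library term, with at least 20 nuclei per sum, after thinning and without w8. From GCyoung to GCmat1 it fell by 0.68 (SE 0.18, adjusted p = 0.017), a call lost with DESeq2 (adjusted p = 0.058), without the library term (adjusted p = 0.17), after thinning (adjusted p = 0.077) and without w4 or w8. Ephb6, whose kinase domain is also known to lack activity, was at most 12.6 CPM in any cluster, and no comparison called it. Its span of 15.0 kb is the shortest. Per kb, it was above Ephb1 and Ephb2 in astrocytes, GCmat1, OPC and the Peri cluster, and in no other cluster above both. It had 0.303 CPM per kb in GCmat1, against 0.298 for Ephb2, and 0.394 in OPC, from 4 UMIs.

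**Figure D3:**
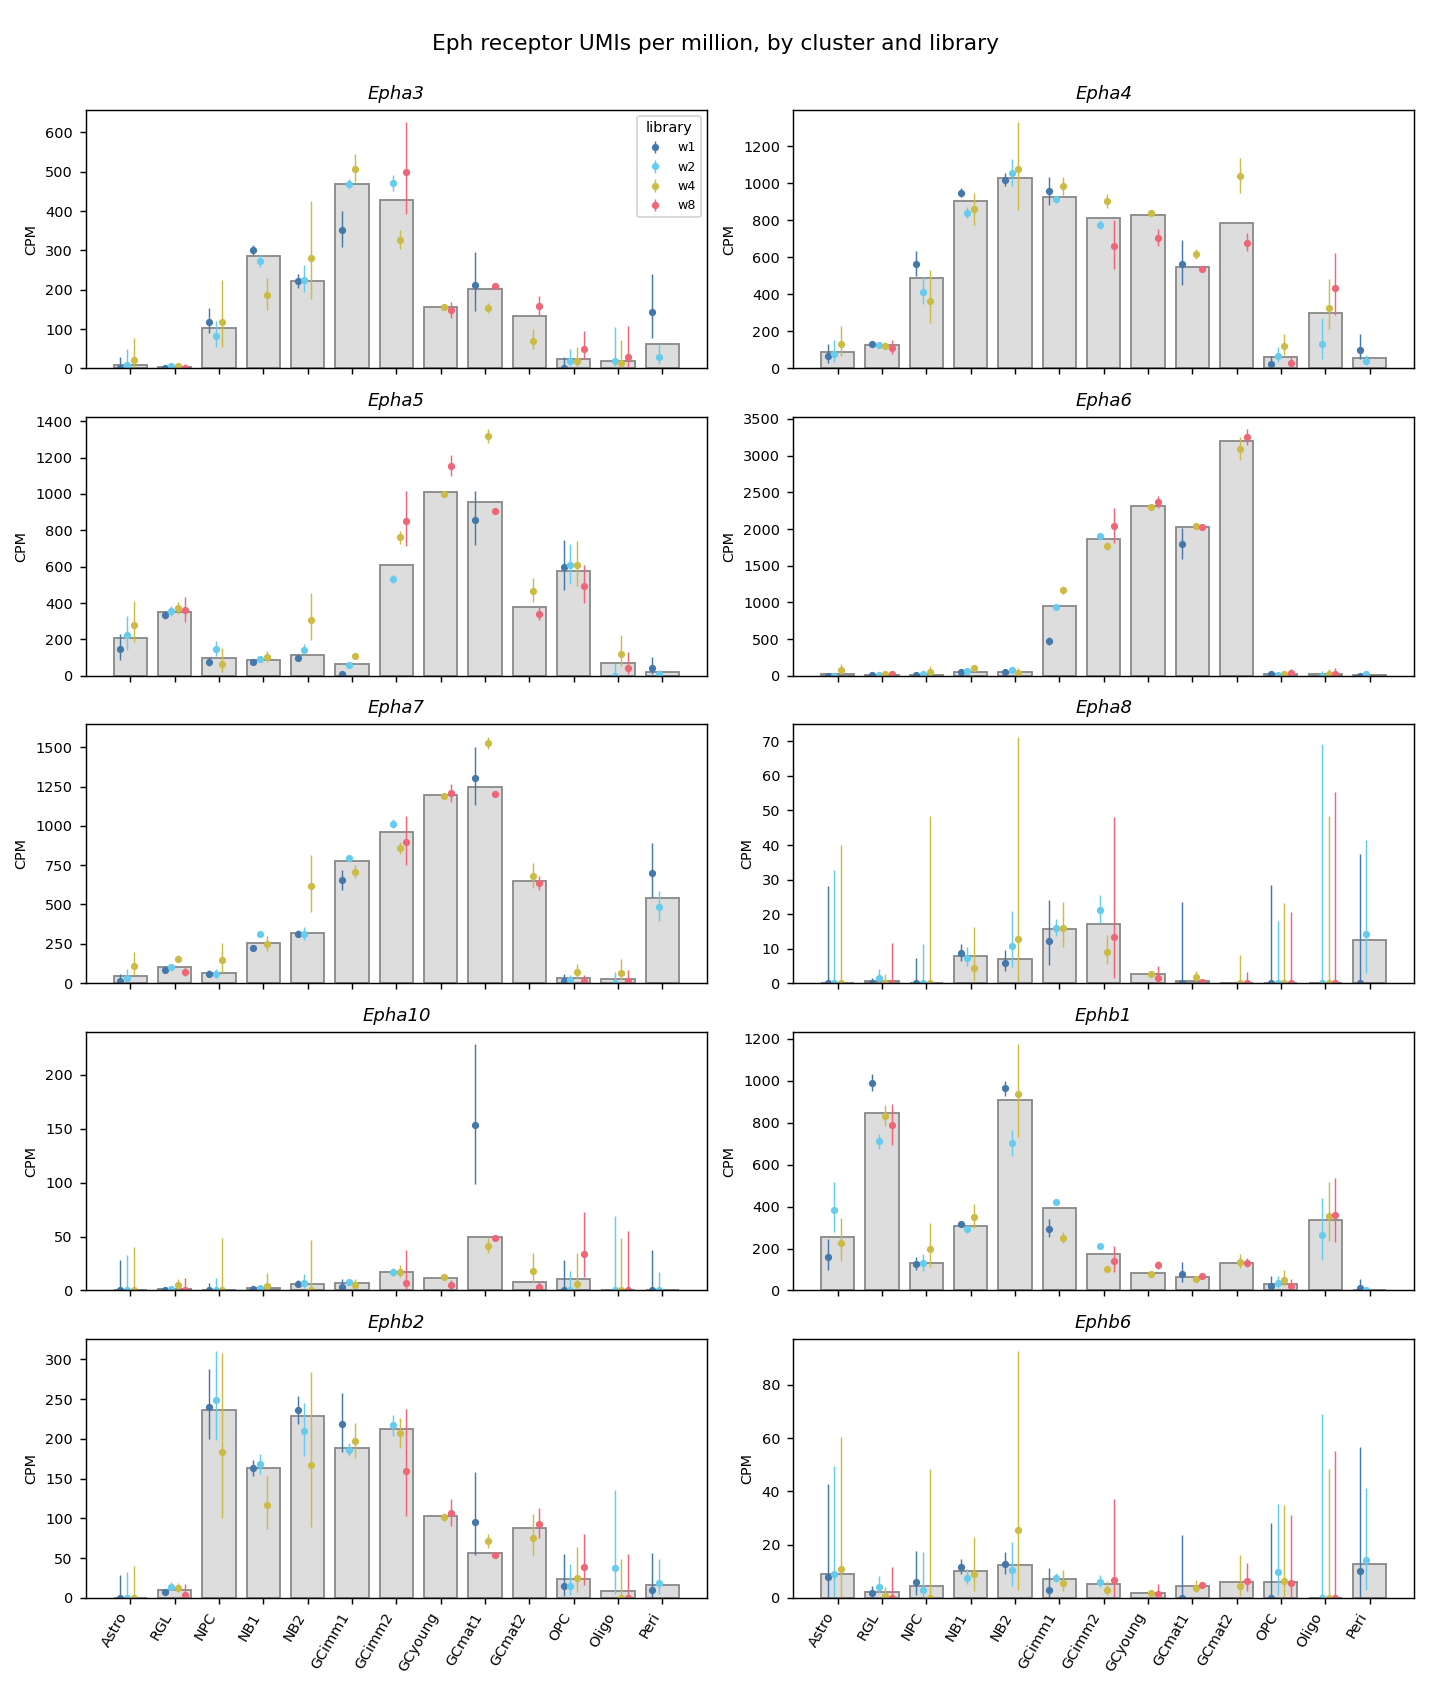
CPM of each receptor (panels, each with its own linear axis) by deposited cluster. Bars are all nuclei of a cluster, points are libraries with at least 10 nuclei of it, and lines are 95% Poisson intervals. Epha6 rises between NB2 (57.5 CPM) and GCimm1 (945 CPM), Epha5 between GCimm1 (64.1) and GCimm2 (610), and Ephb1 has its peaks in RGL (848) and NB2 (910).

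The deposited pseudo-time places nuclei of the trajectory on 1 axis, and receptor levels were read in bins of 2 units with at least 50 nuclei. The bins repeat the order of the clusters at finer steps and are given without a test. Epha4 was highest between 10 and 12 units, with 1270 CPM, in a bin where 81.8% of nuclei were NB1. Epha3 had a first peak of 499 CPM between 8 and 10 units, a low of 145 between 12 and 14 units, and a second peak of 523 between 18 and 20 units. The nuclei of the bin with this low were 75.7% NB1. Epha5 was lowest between 14 and 16 units, with 22.5 CPM, and reached 205 between 18 and 20 and 960 between 20 and 22 units. Epha6 went from 39.8 CPM between 12 and 14 units to 227 and 927 in the next bins. Ephb1 went from 137 CPM between 8 and 10 units to 498 and 511 in the next bins and then to 341.

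**Figure D4:**
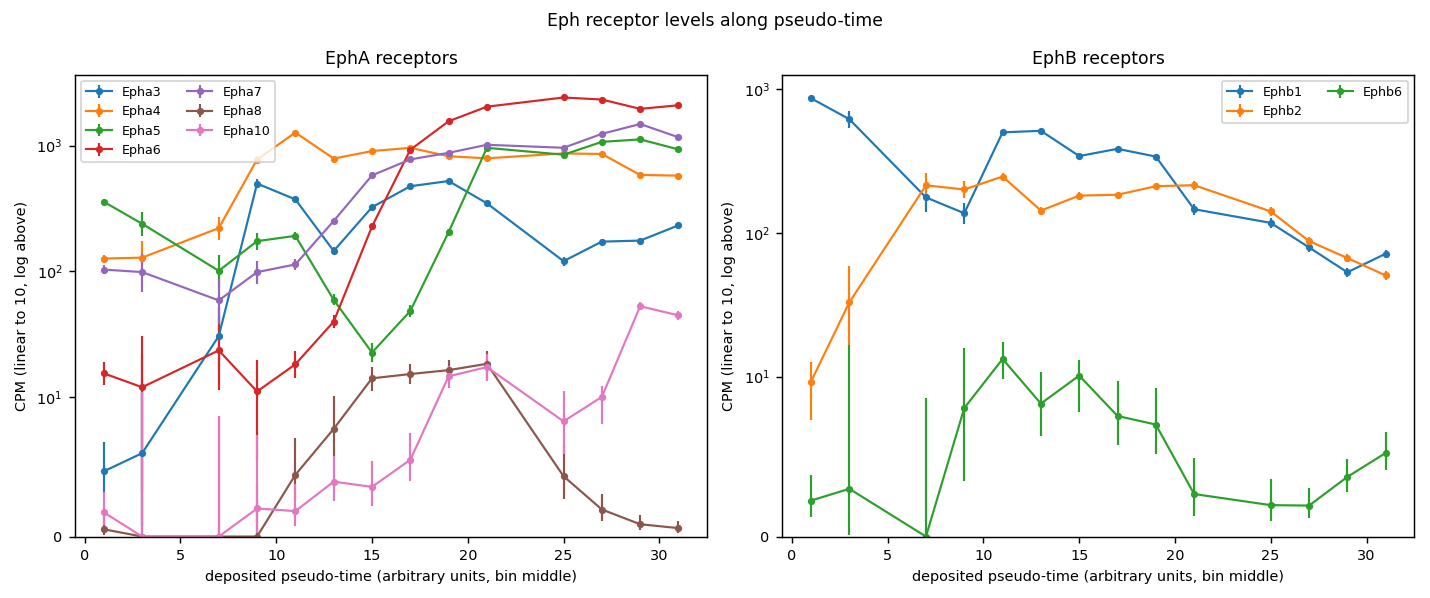
CPM (linear to 10, log above) of the EphA (left) and EphB (right) receptors in bins of the deposited pseudo-time, plotted at the bin middle with 95% Poisson intervals. Epha5 has its low of 22.5 CPM between 14 and 16 units, and Epha3 has 2 peaks, of 499 and 523 CPM.

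GCmat1 holds 220 nuclei to which the deposited table gives no pseudo-time. The study's methods describe GCmat1 nuclei with a strong signal of ventral genes as left out of the axis, but the number given there is not the number found here, so the 220 nuclei are described only as lacking a value. The set without pseudo-time reached 10 nuclei in w8 alone, so both sets are given as values of this 1 library, with no test, and the intervals cover counting error only. Epha5 was 971 CPM in the nuclei of w8 with pseudo-time and 306 in those without, a ratio of 0.315 (exact interval 0.293 to 0.339). Epha7 was 1274 and 511 CPM (0.401, 0.378 to 0.424), and Epha4 563 and 318 (0.565, 0.525 to 0.608). Epha6 had close values, with 2026 CPM with pseudo-time and 2089 without (1.03, 1.00 to 1.06). Ephb1 was 65.3 CPM with pseudo-time and 84.6 without.

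In the oligodendrocyte lineage, 7 of the 8 receptors fitted differed between RGL and OPC, where 29.7% of all genes were called (14.5% higher and 15.2% lower). Of these receptors 4 were higher in OPC and 3 lower, Epha6 was not called, and Epha8 and Ephb6 were too low to be fitted. Ephb1 was 23.0, 34.1, 50.1 and 22.3 CPM in OPC of w1, w2, w4 and w8, far below the RGL values, with a log2 fold change of -4.55 (SE 0.30, adjusted p = 4.2e-19). Epha7 and Epha4 were lower too (-1.68, adjusted p = 0.00032, and -0.89, adjusted p = 0.024). Epha5 was higher in OPC in 4 of 4 libraries, with 598, 608, 607 and 496 CPM (0.81, SE 0.23, adjusted p = 0.0037). Epha3, Epha10 and Ephb2 were called higher in OPC from 16, 7 and 16 UMIs, and without w8 none of these was called (1.59, 0.33 and 0.88). Epha10 was also lost without the library term and was not fitted after thinning. Ephb2 was also lost without w1, without the filter on low counts and after thinning. Epha4 was also lost without w1 or w8 (-0.63 and -0.69) and after thinning. Of 8 receptors fitted from OPC to oligodendrocytes 3 were called, 2 higher and 1 lower, where 20.0% of genes were (6.7% higher and 13.2% lower). Epha4 rose from 60.7 to 300.5 CPM (2.14, SE 0.39, adjusted p = 1.6e-05, lost after thinning with 1.54) and Ephb1 from 32.6 to 337 (3.14, SE 0.43, adjusted p = 4.7e-08). Epha5 fell from 576 to 68.3 CPM (-3.63, SE 0.47, adjusted p = 1e-08). The median log2 fold change of all genes was -0.14 from RGL to OPC and -0.43 from OPC to oligodendrocytes. The 45 oligodendrocyte nuclei gave 219664 UMIs, so counts of receptors there were between 0 and 74.

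Of the 4 other Eph receptors, Epha2 had no UMI in any cluster and Epha1 was at most 6.32 CPM. Ephb3 and Ephb4 were low, with 10.7 and 18.5 CPM in RGL and 0.0685 and 0.0343 in GCmat1. Of the 4 receptors 2 were fitted along the path, and 1 was called in each of 2 comparisons. Ephb3 was lower in GCimm1 than in NB1 (-2.13, SE 0.56, adjusted p = 0.0049), where 12.5% of all genes were called. Ephb4 was lower in GCyoung than in GCimm2 (adjusted p = 0.021), where 18.9% were called. Among the 8 ephrins, 6 were fitted along the path. Calls of ephrins and of the 4 other receptors were not checked under the alternative settings. From NPC to NB1 Efna5 and Efnb2 were lower, where 29.3% of all genes were called, and from NB1 to GCimm1 Efna3 was higher (12.5%). Efnb2 was higher and Efna5 lower from GCimm1 to GCimm2 (9.43%), and Efna5 was lower from GCimm2 to GCyoung (18.9%). From GCmat1 to GCmat2 Efna5 and Efnb3 were higher (7.3%). None was called in the other comparisons of neuronal clusters. Efna5, a ligand of EphA receptors, had 263 CPM in RGL, 509 in NPC, 123 in NB1, 119 in GCimm1, 35.6 in GCimm2 and 10.5 in GCyoung. It fell from NPC to NB1 (-1.60, SE 0.25, adjusted p = 7.6e-07), from GCimm1 to GCimm2 (-1.43, SE 0.27, adjusted p = 0.0001) and from GCimm2 to GCyoung (-1.29, SE 0.36, adjusted p = 0.0062). From GCmat1 to GCmat2 it was called higher (19.2 to 76.3 CPM, 1.51, SE 0.35, adjusted p = 0.0021), although it was higher in 1 of 2 libraries. The summed EphA receptors were 769 CPM in NPC, 5515 in GCyoung, 5033 in GCmat1 and 5158 in GCmat2. Efnb3, a ligand of EphB receptors, was highest in oligodendrocytes, at 378 CPM against 11.8 in OPC (4.63, SE 0.45, adjusted p = 1.3e-12).

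Of 24 signalling partners of the receptors, 11 were higher and 2 lower from NPC to NB1, where 14.7% of all genes were higher and 14.6% lower. Calls of partners were not checked under the alternative settings. The partners' median log2 fold change was 0.67 and that of all genes 0.06. Ptpro, a phosphatase known to act on Eph receptors, rose from 14.2 to 836 CPM (5.98, SE 0.43, adjusted p = 6.2e-17), and Anks1b, whose relative Anks1 binds Eph receptors, from 279 to 1919 (3.05, SE 0.26, adjusted p = 2.8e-14). The 2 partners called lower were Abl1 and Anks1 itself. From GCimm2 to GCyoung 8 partners were higher and 4 lower, against 9.27% and 9.62% of genes, among them the exchange factors Kalrn (1163 to 2672 CPM, 1.51, SE 0.25, adjusted p = 4.1e-06) and Tiam1 (143 to 319 CPM, 1.35, SE 0.21, adjusted p = 9.9e-07) and, downwards, Ptpro (1302 to 363 CPM, -1.53, SE 0.28, adjusted p = 3.4e-05). From GCyoung to GCmat1 1 of 24 was called, Vav2, which was lower, where 3.85% of all genes were called. The partners called higher and lower were 4 and 2 from RGL to NPC, where 29.5% of all genes were called in either direction, 4 and 1 from NB1 to GCimm1 (12.5%), and 5 and 1 from GCimm1 to GCimm2 (9.43%). Of 23 partners fitted with all clusters, 8 were higher and 3 lower from RGL to OPC (29.7% of genes called), and 1 was higher and 8 were lower from OPC to oligodendrocytes (20.0%).

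Genes whose levels followed a receptor most closely were ranked by Pearson's r of log2(CPM + 1) over the 10 clusters from astrocytes to GCmat2, among 10169 genes of at least 20 CPM in 1 of them. The points share libraries, and with 10 clusters many genes follow the same course, so r is a description. Epha6 was closest to Lrfn5 (r = 0.995), Slc35f4 (0.990) and Ptpre (0.988). Epha4 was closest to Ccser1 and Dbn1 (0.992 each) and Srrm3 (0.991), and Ephb2 to Ascc2 (0.991), Asxl3 (0.983) and Bbs4 (0.982). Epha7 was closest to 4930509J09Rik (0.988), Fam19a2 (0.985) and Palm2 (0.983), and Epha3 to Gria4 (0.979), Gm5087 (0.978) and Noc2l (0.977). Palm2 was also closest to Epha10 (0.957), ahead of 3110043O21Rik (0.944) and Galns (0.941). Epha5 was closest to Prepl (0.946), Fam13a (0.904) and Mta3 (0.903). Ephb1 had the lowest leading value, with Golga2 and 4632415L05Rik (0.935 each) and Tmem33 (0.930). Epha8 and Ephb6 did not reach 20 CPM.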

How the data were processed

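Single-nucleus 3′ RNA sequencing of sorted nuclei gave 4 libraries. The authors counted UMIs over exons and introns with STARsolo (version 2.7.4a in the submitters' processing notes) on GRCm38 (mm10) and deposited raw counts per gene and nucleus. They also deposited a log2 table, with counts over scran size factors and 1 added, after removing doublets, low-quality nuclei and, per the study's methods, a group of w4 nuclei that could stem from 1 outlying mouse. Of 5459 barcodes in the w4 counts 3831 were therefore used. From that table the nuclei, clusters and pseudo-time were taken, and its log2 values were not used. These counts were added up within each cluster of a library that held at least 10 nuclei. For astrocytes and the trajectory, 29 sums were fitted jointly in edgeR 4.0.16 under R 4.3.3 (filterByExpr, TMM factors, quasi-likelihood test), with terms for the cluster and the library, which left 16 residual degrees of freedom. It tested 13513 genes at a common dispersion of 0.0142. A fit of all 13 clusters (38 sums, 11548 genes) gave the OPC and oligodendrocyte comparisons. A test planned for GCmat1 divided by pseudo-time is not reported, since 1 set was a single library. Standard errors are those implied by the quasi-likelihood F. The library term takes out shifts shared by all clusters of a pool. The p-values therefore rest on how cluster differences vary between libraries, with 1 spread shared over clusters. Because animals were pooled and each pool is a different week, this spread may be technical or come from the week. It is not a spread between replicate pools. Gene positions came from GENCODE M21 (GRCm38) and promoter windows from RefSeq (GRCm38.p6). Same-strand genes overlapping the receptors had no UMI. The alternatives were RLE factors, DESeq2 1.42.0, no filter on low counts, no library term, at least 20 nuclei per sum, 2000 UMIs drawn from each nucleus (thinning, which left out 141 shallower nuclei), all 13 clusters in the fit, each library left out, and for levels another denominator or the mean of libraries. The naming rule took all 10 members in each comparison and, for members of at least 20 CPM, the 3 genes of highest r. Partners, ephrins and other receptors given with values stand outside this rule, and the partners are examples picked from the calls. The text gives called members by name and the others by counts and in the plot of fold changes. The members and the gene lists were chosen with earlier results of these data known. The driver of the Cre is not reported here.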

Additional observations from a re-analysis of the deposited data

Results flagged for a closer look

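In 2 cases libraries moved in opposite directions, each with an interval of the ratio that excludes 1. The difference between libraries was not tested, since each week is 1 pool, and the intervals cover counting error only. Ephb1 was higher in GCimm1 than in NB1 in w2, where its CPM was 1.44 times as high (exact interval 1.35 to 1.53), and lower in w4, with a ratio of 0.714 (0.592 to 0.864). In w1 the ratio was 0.926 (0.794 to 1.07). Epha5 was higher in GCmat1 than in GCyoung in w4, with a ratio of 1.32 (1.28 to 1.36), and lower in w8, with 0.785 (0.747 to 0.826). Neither receptor was called in the joint fit of these pairs. The nuclei behind the ratios of Epha5 were 1979 GCyoung and 403 GCmat1 nuclei in w4 and 188 and 2927 in w8.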

How the results depend on the processing

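Of the values of called receptors recomputed under the alternatives, 374 kept their direction and call, 49 kept the direction but lost the call, and 0 turned. Values not fitted under an alternative are left out of these counts. Of the 43 called values, 34 kept and 5 lost the call after thinning, and 40 kept it with at least 20 nuclei per sum. The rest were not fitted there. The number of receptors called moved by over 1.5 times in these cases, and the cause was not tested. Between astrocytes and RGL it was 1, but 3 without the filter on low counts and 2 with at least 20 nuclei per sum. With DESeq2 it was 3 from NB1 to GCimm1 (5 in the joint fit), 2 from GCimm1 to GCimm2 (4) and 1 from GCyoung to GCmat1 (2). Without the replicate block, which is the library term, it was 1 from GCyoung to GCmat1 (2). After thinning it was 1 from GCyoung to GCmat1 (2) and 4 from RGL to OPC (7). With each library left out in turn, the number ranged from 1 to 3 between astrocytes and RGL (2 without w4, 3 without w8), 1 to 2 from NB1 to NB2 (2 without w4), 3 to 5 from NB1 to GCimm1 (3 without w2), 2 to 4 from GCimm1 to GCimm2 (2 without w2), 1 to 4 from GCimm2 to GCyoung (1 without w4), 1 to 2 from GCyoung to GCmat1 (1 without w4 or w8), 2 to 5 from GCmat1 to GCmat2 (2 without w4 or w8) and 3 to 7 from RGL to OPC (3 without w8). A cluster left with 1 library was then assumed to vary like the others. Of the receptor levels by cluster, 88 moved past their counting interval and 42 did not when the UMIs of the genes in the expression table were the denominator, which scales all receptors of a cluster alike (the level of Epha6 in GCmat1 was 3257 CPM against 2029). With the mean of libraries 44 moved and 86 did not. The level of Epha5 in NB2 was then 183 CPM against 113, and the level of Epha10 in GCmat1 was 81.4 CPM against 49.3.

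Over all genes, the number called moved by over 1.5 times as follows. With DESeq2 it was 194 from NB1 to NB2 (397 in the joint fit), 813 from GCimm1 to GCimm2 (1274) and 229 from GCyoung to GCmat1 (520). Without the replicate block it was 189 from NB1 to NB2. Thinning also left fewer genes tested, 9201 in place of 13513, and 8514 in place of 11548 with all clusters. The number called was then 2597 from RGL to NPC (28.2% of the genes tested, against 29.5%), 1646 from GCimm2 to GCyoung (17.9% against 18.9%), 288 from GCyoung to GCmat1 (3.13% against 3.85%), 503 from GCmat1 to GCmat2 (5.47% against 7.3%), 2261 from RGL to OPC (26.6% against 29.7%) and 1406 from OPC to oligodendrocytes (16.5% against 20.0%), so none of these shares moved by over 1.5 times. With a library left out it was 813 (without w1) and 818 (without w2) between astrocytes and RGL (1295), 2550 from NPC to NB1 (without w1, from 3964), 102 (without w1) and 248 (without w2) from NB1 to NB2, 780 from NB1 to GCimm1 (without w2, from 1691), 410 from GCimm1 to GCimm2 (without w2), 487 from GCimm2 to GCyoung (without w4), 216 (without w4) and 219 (without w8) from GCyoung to GCmat1, and 567 (without w4) and 412 (without w8) from GCmat1 to GCmat2. The split of higher against lower calls moved with RLE factors, which change the scaling, or with DESeq2, which changes both scaling and test. Between astrocytes and RGL it was 644 against 651, then 455 against 854 with RLE factors and 318 against 890 with DESeq2. From NPC to NB1 1986 against 1978 became 1686 against 2299 and 1413 against 2112, and from GCimm2 to GCyoung 1253 against 1300 became 1057 against 1586 and 682 against 1152. From GCmat1 to GCmat2 407 against 579 became 503 against 482 and 376 against 303. With DESeq2 the split also moved from 244 against 153 to 141 against 53 from NB1 to NB2, from 216 against 304 to 56 against 173 from GCyoung to GCmat1, and from 1673 against 1760 to 1897 against 1273 from RGL to OPC. With RLE factors the splits of these comparisons were 289 against 146, 221 against 334 and 1864 against 1448. In oligodendrocytes, 219664 UMIs in all set the limit on what could be detected.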

Other observations

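The Peri cluster, 60 nuclei of which w1 held 18 and w2 held 40, carried markers of vascular leptomeningeal cells and had Epha7 as the receptor of highest CPM. Epha7 was 540 CPM there, with 702 in w1 and 481 in w2, and 78.3% of nuclei had a UMI (exact interval 65.8 to 87.9%), or 58.3% after thinning. In oligodendrocytes, at a similar depth, Epha7 was 27.3 CPM. Ephb1 was 3.16 CPM in Peri from 1 UMI, the lowest level of Ephb1 in any cluster. Efna5 was 259 CPM and Efnb2 was 91.6 CPM in the same nuclei, the highest value of Efnb2 over the 13 clusters. No comparison of the Peri cluster was tested.

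Vav3 was 292 CPM in astrocytes and 4.75 in RGL (log2 fold change -5.93, SE 0.31, adjusted p = 3.2e-21), and Ngef, the exchange factor ephexin-1, was 155 and 29.3 CPM (-2.41, SE 0.30, adjusted p = 1.1e-08). Of 24 partners 3 were higher in RGL (Chn1, Sipa1l1 and Anks1b) and 5 lower, where 9.58% of genes were called.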
